A study of Mus musculus with 24 samples.

Results

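The effect of metformin on the ileum under a high-fat diet was described by comparing 6 high-fat diet-fed mice that received metformin (HFDmetf) with 6 high-fat diet-fed mice that did not (HFD), which are 12 of the 24 libraries sequenced. Of 55536 genes in the count table, 34601 had at least 1 read in these 12 libraries, and the 13505 genes that passed the filter on low counts are the members described here, sorted by function and by cell compartment so that epithelial and lymphoid genes are kept apart. The mice were C57BL/6N, 4 to 5 weeks old at the start, and each group held 3 males (M1 to M3) and 3 females (F1 to F3). All 12 ate a diet with 60 kcal% fat. After 20 weeks, the HFDmetf mice were given metformin in the drinking water for 10 weeks at 50 mg per kg of body mass per day, while the HFD mice went on without it. A pair of groups on a diet with 10 kcal% fat, without (CD) and with metformin (CDmetf), was used for the shared estimate of the spread and for a comparison of the drug between diets. Each library came from 1 animal, drawn from a cage of 3, and the cages were set up in 3 time blocks. The RNA was from whole pieces of distal small intestine and was depleted of ribosomal RNA. The sources used here do not give the hour at which the tissue was taken.

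Metformin is an oral drug against type 2 diabetes that enters cells through organic cation transporters and reaches high levels in the gut wall. It slows complex I of the mitochondrial respiratory chain and thereby can activate the energy sensor AMPK. The ileal wall holds absorptive enterocytes, crypts with dividing stem and Paneth cells, scattered secretory cells, a lamina propria with IgA-secreting plasma cells and macrophages, and lymphoid follicles with naive B cells. A piece of tissue can therefore hold more or less of a follicle, of muscle or of the fat outside the gut. In such bulk RNA, fewer cells of a type and less RNA per cell cannot be told apart.

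Several libraries stood apart and are named here before the results. Between 2322210 and 40606442 reads per library fell on genes in HFD (median 3145285) and between 1829690 and 27226092 in HFDmetf (median 3966407), so that 3 counts, taken as the floor of a library, correspond to between 0.0722 and 1.65 CPM (counts scaled to the TMM-normalized library size). These floors cover counting error only, and values under them are printed as measured but cannot be told from 0. In HFDmetf F2, 28.6% of the reads fell on genes and the 10 largest genes took 36.6% of them, against at most 18.97% in HFD. In the control-diet library CD M3, 24.3% of the reads fell on genes and the 10 largest genes took 85.4% of them. That library was kept in the shared estimate of the spread and in the comparison between diets. The enterocyte genes *Vil1* (671 to 2828 CPM) and *Epcam* (619 to 1977 CPM) were high in all 12 libraries. The ileal bile acid genes *Fabp6* (0.841 CPM), *Slc10a2* (5.05 CPM) and *Fgf15* (0 CPM) were near or at 0 in HFD M3, against 122 to 1746, 29.9 to 243 and 15.4 to 141 CPM in the other 11. The sex-linked transcripts of 2 libraries, HFD M2 and HFD F2, went against their labels, and both were kept under the labels.

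No gene passed the threshold of FDR < 0.05 in HFDmetf vs. HFD. The smallest FDR (Benjamini-Hochberg, from the quasi-likelihood test of edgeR) was 0.62, and limma-voom and DESeq2 each called 0 genes as well. At an unadjusted p under 0.05 there were 928 genes, which is 6.87% of those tested, with 417 higher (3.09%) and 511 lower (3.78%) in HFDmetf. Over all tested genes 6592 (48.8%) were higher and 6913 (51.2%) lower, with a median logFC of −0.01. Each of the 928 had an FDR of 0.62. These counts moved with single libraries, from 177 higher and 202 lower without HFDmetf M1 to 1120 higher and 1127 lower without HFD F3. Counts at p under 0.05 given below are of this unadjusted kind. Some single genes are given with the standard error (SE) of the logFC and others with the logFC alone. None of them was called differentially expressed at FDR < 0.05, which does not show that they were unchanged. Of the 928 genes, 130 were among the 1141 tested genes of the 62 functional and cell type lists, and 798 were in none.

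The 10 genes with the smallest p that were higher in HFDmetf had logFCs from 0.35 to 1.34. *Impact*, whose product restrains the amino acid sensor kinase GCN2, had 8.86, 14.3 and 19.8 CPM (lowest, median, highest) in HFD and 17.3, 20.5 and 23.6 CPM in HFDmetf (logFC = 0.53, SE = 0.144). The groups overlapped, with 4 of the 6 HFDmetf libraries above every HFD library. *Pamr1* (chr2:102550012-102643041, GRCm38), which encodes a secreted protein linked to muscle regeneration, had 2.22, 4.60 and 9.59 CPM in HFD and 9.90, 11.0 and 12.8 CPM in HFDmetf (logFC = 0.93, SE = 0.267). Every HFDmetf library lay above every HFD library. The other 8 were *Ern2* (logFC = 0.35), which encodes a stress sensor of the endoplasmic reticulum in mucus-secreting cells, the membrane protein gene *Flrt2* (0.81), *Stard13* (0.48), the matrix glycoprotein gene *Sned1* (0.73), the haemoglobin gene *Hbb-bs* (1.34), the endothelial BMP receptor gene *Acvrl1* (0.53), the red cell gene *Smim1* (0.88) and *Mxra7* (0.61).

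Among the genes with the smallest p that were lower in HFDmetf, *Mptx2* (chr1:173274382-173277777), a pentraxin gene of Paneth cells, had 34.6, 196 and 427 CPM in HFD and 23.1, 50.1 and 80.4 CPM in HFDmetf (logFC = −1.89, SE = 0.512). The HFDmetf libraries were gathered in the lower part of a wide HFD range, and the groups overlapped. The V segments *Igkv5-48* (logFC = −3.21) and *Ighv1-75* (−2.95) had the smallest p of all, 0.000595 and 0.000818. Such segments are near-identical copies whose reads the counting could split, and a few plasma cell clones can set their level, so they are uncertain. *Mfsd2a*, a transporter of lysophosphatidylcholine, had 4.57, 30.02 and 47.5 CPM in HFD and 0, 6.69 and 12.6 CPM in HFDmetf (logFC = −1.91, SE = 0.555), again with overlap. The others were *Mxi1*, an antagonist of Myc (logFC = −0.74), *AW112010* (−0.67), the mitophagy kinase gene *Pink1* (−0.49), *Ormdl1*, which restrains sphingolipid synthesis (−0.58), the leukotriene B4 receptor gene *Ltb4r1* (−1.17) and the RNA-binding protein gene *Rbm7* (−0.37).

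The groups did not overlap in 6 of the 13505 genes (0.0444%), 5 of them higher (0.037%) and 1 lower (0.0074%) in HFDmetf. Besides *Pamr1*, the higher ones were *Add2*, which encodes beta-adducin (logFC = 1.41), *Dbh*, the enzyme that makes noradrenaline in sympathetic nerves (1.21), *Aspg*, an asparaginase (0.47), and *Igsf6*, an immunoglobulin-superfamily gene (0.54). *Add2* was at or below 1.30 CPM in every HFD library and between 1.75 and 3.85 CPM in HFDmetf, and in HFD M1, M3 and F2 it was under the floor of the library. The lower gene was *Btla*, an inhibitory receptor gene of B and T cells, with 3.36, 4.06 and 18.8 CPM in HFD and 2.00, 2.83 and 3.33 CPM in HFDmetf (logFC = −1.41, SE = 0.584). The HFD medians of these 6 genes were between 0.801 and 5.00 CPM. Some gaps between the groups were narrow. The highest HFD and lowest HFDmetf values were 1.63 and 1.64 CPM in *Dbh* and 5.76 and 5.79 CPM in *Aspg*. *Dbh* was also under the floor in HFD M3 (0.421 CPM, floor 1.26 CPM).

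By compartment, lymphoid and stromal genes lay on opposite sides of all genes. Of 288 tested genes that were in lymphoid lists only, 216 were lower and 72 higher in HFDmetf, 50 lower and 3 higher at p under 0.05 (18.4% beside 6.87% of all genes), with a median logFC of −0.31. Of 560 genes that were in epithelial lists only, 368 were lower and 192 higher, 33 lower and 13 higher at p under 0.05 (8.21%), with a median of −0.16. Of 82 stromal genes 80 were higher, 8 of them at p under 0.05, with a median of 0.48. The 44 myeloid genes were split into 24 higher and 20 lower with a median of 0.04, and 5 higher and 3 lower at p under 0.05 (18.2%). Without the immunoglobulin genes, 156 of 184 lymphoid genes were lower (median −0.33), and without the B-cell genes too, 112 of 138 were lower (median −0.29). These differences rested in good part on HFD M2 and HFD F1. Without both, 186 of 314 lymphoid genes were lower, 11 at p under 0.05, with a median of −0.12, and the medians without the immunoglobulin genes and without the B-cell genes too were −0.15 and −0.14. Without HFD F1 alone 17 lymphoid genes were lower at p under 0.05, and without HFD M2 alone 19 were. Without HFDmetf M1 and HFDmetf F2 the epithelial median was −0.07, with 15 genes lower and 4 higher at p under 0.05. With single libraries left out it ran from −0.19 (without HFDmetf M2) to −0.07 (without HFD F2, 10 lower and 9 higher at that p). Without HFD M3 alone it was also −0.07, with 11 lower and 10 higher. Without HFD M3, HFD F2 and HFDmetf M3 it was −0.03, with 311 of 584 genes lower.

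The directions depend on what each library is scaled to. When libraries were scaled on the epithelial structure genes or on the general leukocyte genes in place of all genes, the median logFC of all genes moved to 0.29 in either case, and 1772 genes were then higher and 55 lower, or 579 higher and 43 lower, at p under 0.05. Relative to that shifted median, the lymphoid genes lay at −0.33 and −0.23, the epithelial genes at −0.15 and −0.19, the myeloid genes at 0.01 and 0.03 and the stromal genes at 0.52 and 0.50. All directions below are therefore relative to the bulk of the genes, and relative to all genes the lists below kept their sign under either scaling and under DESeq2's size factors, except those with medians near 0, namely the goblet cell, M cell and cytosolic ribosomal lists and the heavy-chain V segments under the epithelial scaling, the heavy-chain V segments in the DESeq2 fit too, and the Toll-like receptors under the leukocyte scaling. On the absolute scale, the lymphoid median was −0.04 and 0.06 and the epithelial median 0.14 and 0.11 under the 2 scalings.

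**Figure D1:**
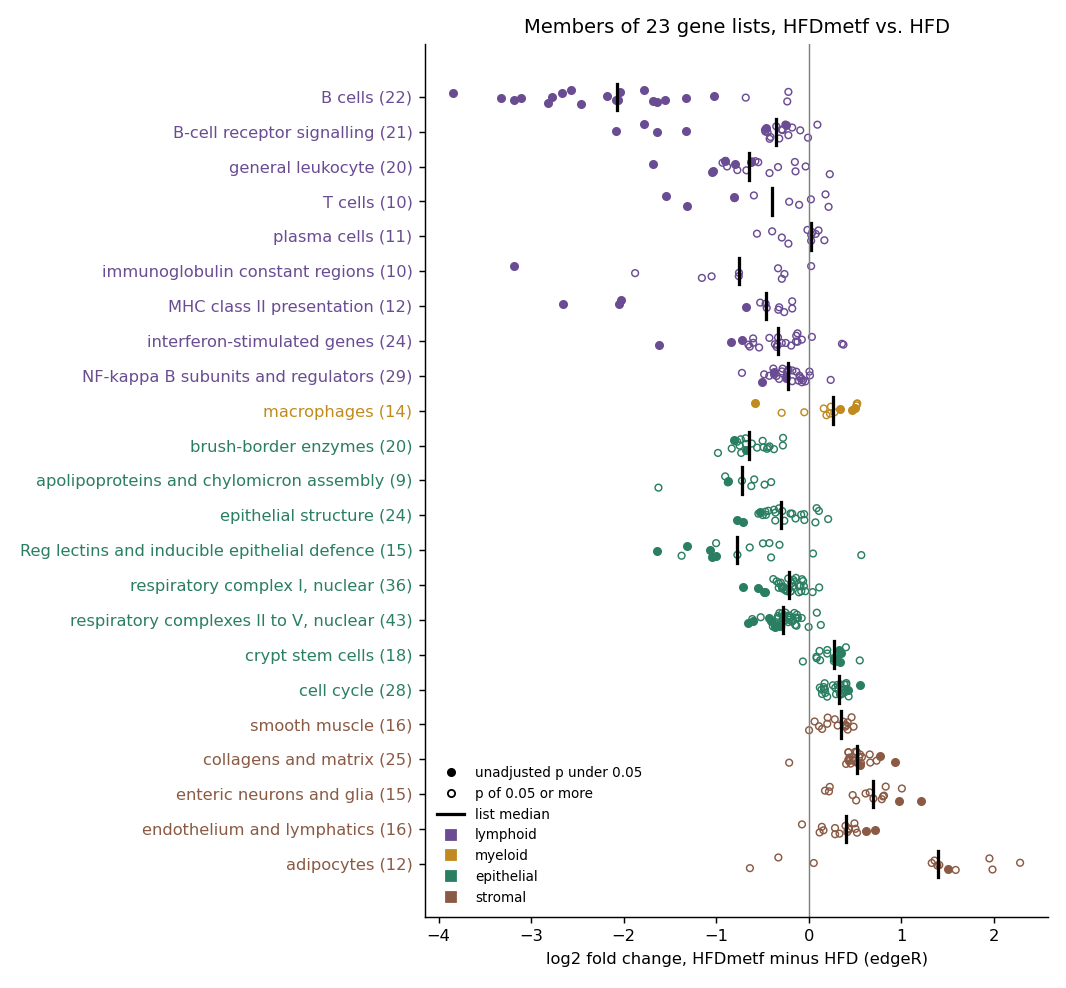
Each point is the logFC (HFDmetf minus HFD, log2) of 1 tested gene, with 23 lists in rows coloured by compartment and the number tested in brackets, filled points at an unadjusted p under 0.05, a black bar at the list's median and a grey line at 0. Of these lists the B-cell list lies farthest to the left with a median of −2.07 and the adipocyte list farthest to the right with 1.40.

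The 4 genes given as markers for this comparison act in B cells. *Btk* encodes the kinase behind the B-cell receptor, *Tnfrsf13b* encodes TACI, a receptor for the survival factors BAFF and APRIL, *Cxcr4* encodes the receptor for the chemokine CXCL12, and *Ly6d* marks cells of the B lineage. The study chose them on these same samples, so their direction is not independent evidence. *Btk* (chrX:134542336-134583570) had 2.49, 4.06 and 9.99 CPM (lowest, median, highest) in HFD and 0, 2.29 and 4.23 CPM in HFDmetf (logFC = −1.33, SE = 0.473). *Tnfrsf13b* (chr11:61126755-61149372) had 3.34, 7.14 and 14.4 CPM in HFD and 2.98, 4.19 and 6.05 CPM in HFDmetf (logFC = −0.81, SE = 0.362). In both genes the upper HFD libraries exceeded every HFDmetf library, and the lower ones lay among them. *Cxcr4* (chr1:128588199-128592293) had 2.22, 5.74 and 18.1 CPM in HFD and 2.72, 3.14 and 5.44 CPM in HFDmetf (logFC = −1.02, SE = 0.442). *Ly6d* (chr15:74762056-74763620) had 2.86, 5.63 and 15.1 CPM in HFD and 0, 2.04 and 3.63 CPM in HFDmetf (logFC = −1.56, SE = 0.522). The highest value of each of the 4 genes was in HFD F1, and the groups overlapped in all of them.

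HFD F1 and HFD M2 carried much of this difference. Without them, the logFC of *Btk* was −0.80, that of *Tnfrsf13b* −0.46, that of *Cxcr4* −0.43 and that of *Ly6d* −1.03, so the direction was the same and none of the 4 was at p under 0.05. Without HFD F1 alone, 1 of the 4 was.

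**Figure D2:**
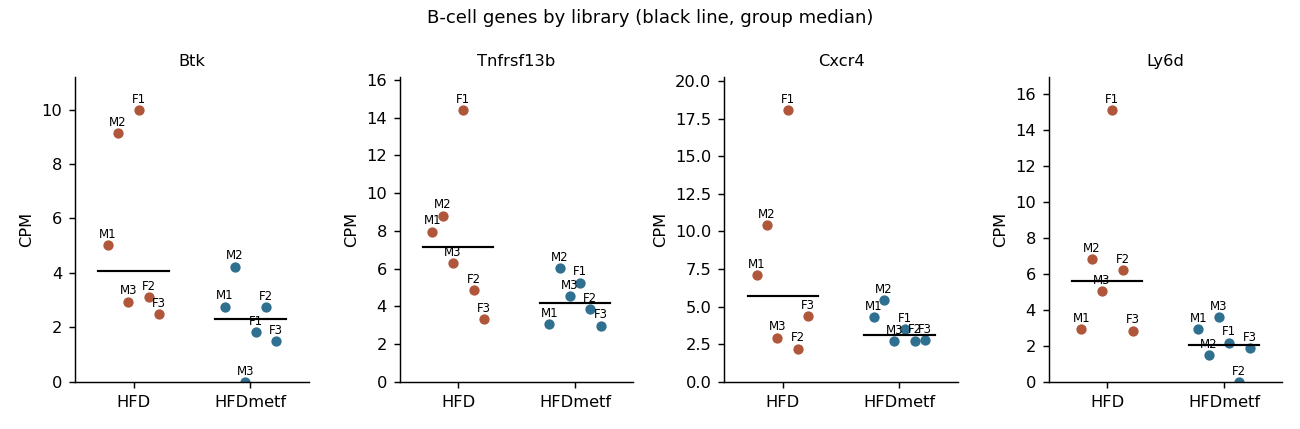
CPM of the 4 marker genes in each of the 12 libraries, with HFD and HFDmetf side by side, points labelled by replicate and a black line at each group's median. HFD F1 is the highest point for all 4 genes, and the group ranges overlap in each.

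The wider B-cell list, which includes *Btk* and *Ly6d*, moved the same way and showed the same dependence on those libraries. All 22 tested members of 24 were lower in HFDmetf, 19 of them at p under 0.05 (3.78% of all genes were lower at that p), with a median logFC of −2.07, although *Ebf1* and *Blnk* changed sign under either of the other scalings. *Fcmr*, the receptor for IgM (logFC = −3.84, SE = 1.24), *Cxcr5*, which leads B cells into follicles (−3.32, SE = 1.14), *Ighd*, the IgD heavy chain of naive B cells (−3.19, SE = 1.17), and *Pax5*, the transcription factor of B-cell identity (−3.11, SE = 1.10), were the farthest apart. *Fcmr* was under the floor in HFD M3 and F2 and in HFDmetf M1, M2 and M3. *Cxcr5* was under it in HFD M3 and F2 and in HFDmetf M2, M3 and F2. In HFD F1 these genes had 26.9 and 18.2 CPM, and in HFD M2 11.7 and 16.3 CPM. *Tnfrsf13c*, the BAFF receptor gene, was lower by a logFC of −2.82, *Ms4a1*, which encodes CD20, by −2.57 and *Cd79a*, a chain of the B-cell receptor complex, by −1.64. *Ebf1*, which is also used outside the B lineage (logFC = −0.23, SE = 0.530), and the adaptor gene *Blnk* (−0.22, SE = 0.209) were closest to 0.

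Read per library, this was a matter of a few HFD animals with many B-cell transcripts. The summed level of the 24 genes was 469 CPM in HFD M2 and 688 CPM in HFD F1, and 59.4 to 116 CPM in the other 4 HFD libraries. In HFDmetf it ranged from 44.8 to 119 CPM with a median of 92.4 CPM, beside a median of 106 CPM in HFD. HFD M2 and HFD F1 were the 2 highest of the HFD libraries in 21 of the 22 genes. *Pax5* illustrates it, with a median of 4.65 CPM and a highest value of 56.4 CPM in HFD against 2.11 and 3.02 CPM in HFDmetf. With both libraries left out, 20 of 22 genes were still lower but 0 were at p under 0.05, and the median logFC was −0.49. Without HFD F1 alone 2 genes were at p under 0.05 (median −1.35), and without HFD M2 alone 3 were (median −1.58). Leaving out the 2 libraries whose sex label did not match, which include HFD M2, gave 12 genes and a median of −1.89. How much of the difference is the follicle content of the tissue pieces was not tested.

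**Figure D3:**
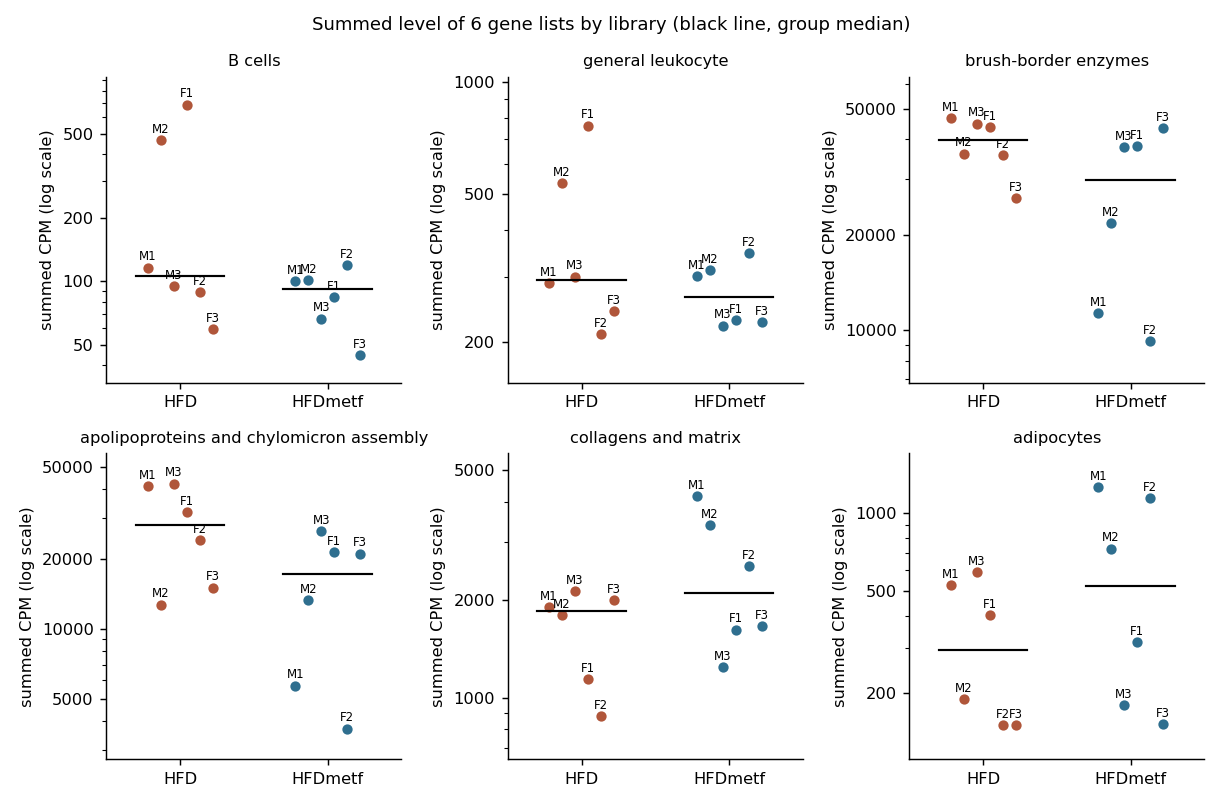
Summed CPM of 6 lists in each of the 12 libraries, on log axes, with HFD and HFDmetf side by side, points labelled by replicate and a black line at each group's median. HFD M2 (469 CPM) and HFD F1 (688 CPM) stand above the other libraries in the B-cell panel, and HFDmetf M1 (11338 CPM) and HFDmetf F2 (9215 CPM) below the others in the brush-border panel.

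Genes of follicles and of leukocytes at large had the same pattern at smaller size. The lists are not fully separate, as *Cd37* is in both the B-cell and the leukocyte list. Of 20 general leukocyte genes 19 were lower in HFDmetf, 6 at p under 0.05, with a median logFC of −0.65. These were *Ikzf1*, a transcription factor of lymphocytes (logFC = −1.04, SE = 0.361), *Rac2* (−1.05), *Gmfg* (−0.80), *Arhgap15* (−0.91), *Cytip* (−0.62) and *Cd37* (−1.68), which are used in leukocyte adhesion, movement and membrane organisation. Their summed level was highest in HFD F1 (762 CPM) and HFD M2 (535 CPM) and lay between 210.5 and 347 CPM in the other 10 libraries. Without those 2 libraries 12 of the 20 were lower, 1 at p under 0.05, and the median was −0.10. Of 13 follicle and homing genes 10 were lower, 5 at p under 0.05, among them *Ltb*, a lymphotoxin needed for follicles (logFC = −1.58), and the integrin gene *Itgal* (−0.71). The median of that list was −0.52, and 0.09 without HFD M2 and HFD F1.

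T cells were sparsely covered, with 10 of 24 listed genes tested. Of these 7 were lower, with *Trac*, the constant region of the alpha T-cell receptor (logFC = −1.55, SE = 0.706), the kinase gene *Lck* (−1.32, SE = 0.614) and the costimulatory receptor gene *Cd28* (−0.81, SE = 0.352) at p under 0.05, and the median was −0.40. Without HFD M2 and HFD F1 the median of the 10 genes was 0.09, with 3 lower and 7 higher. *Cd28* had 2.66, 4.17 and 8.81 CPM in HFD and 1.10, 2.59 and 4.12 CPM in HFDmetf. The lowest of these values, in HFDmetf F2, is under the floor of that library (1.65 CPM). *Trac* was at or under the floor in HFD M1, M3 and F2 and in HFDmetf M1, M3 and F2. *Lck* was so in HFD M3 and F2 and in HFDmetf M2 and M3. The 17 genes of intraepithelial and cytotoxic lymphocytes summed to 22.4 to 46.7 CPM in HFD and 17.8 to 32.4 CPM in HFDmetf, and of the 3 that were tested 0 were at p under 0.05.

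Antigen presentation by MHC class II, which B cells share with macrophages, dendritic cells and enterocytes, was lower throughout. All 12 tested genes were lower in HFDmetf, 4 at p under 0.05, with a median logFC of −0.46. These 4 were *H2-Eb2* (logFC = −2.65), *H2-Ob* (−2.05), *H2-DMb2* (−2.03) and *H2-DMb1* (−0.67), of which *H2-Ob* encodes a chain of the modulator DO, which is best known from B cells. *Cd74*, the invariant chain and the most abundant of the list, had 162, 572 and 730 CPM in HFD and 272, 317 and 541 CPM in HFDmetf (logFC = −0.45, SE = 0.263). The lowest *Cd74* value of all was in an HFD library, and the groups overlapped. Without HFD M2 and HFD F1 all 12 were still lower, with a median of −0.28 and 1 at p under 0.05.

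Genes that pass on the B-cell receptor signal and of the NF-kappa B pathway, which that signal and innate receptors feed, were lower by less. Of 21 receptor signalling genes 20 were lower, 6 at p under 0.05, with a median of −0.35. Without HFD M2 and HFD F1 14 were lower, 1 at p under 0.05, with a median of −0.11, and without HFD F1 alone the median was −0.21 with 1 gene. *Lyn*, a kinase that also serves in myeloid cells, had 51.8, 63.3 and 69.8 CPM in HFD and 34.1, 45.9 and 56.5 CPM in HFDmetf (logFC = −0.46, SE = 0.148). Of the 6 HFDmetf libraries 4 lay below every HFD library. Of 29 NF-kappa B genes 26 were lower, with a median of −0.22, and 3 were at p under 0.05. These were *Birc3*, an inhibitor of apoptosis (logFC = −0.50), *Nfkbia*, which encodes the inhibitor IκBα (−0.37), and *Malt1* (−0.24), which changed sign under both other scalings. *Birc3* and *Nfkbia* are themselves targets of the pathway. The NF-kappa B median was −0.12 without HFD M2 alone and −0.10 with 1 gene at p under 0.05 without HFD M2 and HFD F1, and the number of its genes lower at that p ran from 0 (without HFDmetf F2) to 10 (without HFD F3) when single libraries were left out. The Toll-like receptor genes were split into 8 higher and 8 lower, with 0 of 16 at p under 0.05 and a median of −0.03.

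Interferon-stimulated genes, which encode antiviral proteins and are used in epithelium and leukocytes alike, were also mostly lower. Of 24 tested genes 21 were lower in HFDmetf, 3 at p under 0.05, with a median logFC of −0.33. *Ifi209* had 2.66, 4.63 and 12.5 CPM in HFD and 1.10, 1.83 and 2.94 CPM in HFDmetf (logFC = −1.62, SE = 0.572), with 5 of 6 HFDmetf libraries below every HFD library. *Oasl2* (logFC = −0.84) and *Irf7*, the factor that amplifies the interferon response (−0.72), were the other 2, while *Ifit1* (−0.65, SE = 0.456) and *Oas3* (−0.64, SE = 0.485) did not pass. The summed level was 351 to 559 CPM in HFD and 273 to 438 CPM in HFDmetf. The median was −0.27 without HFD M2 and HFD F1, with 19 of 24 lower and 1 at p under 0.05, and −0.22 without HFD M3, likewise with 19 lower and 1 at that p. By limma-voom it was −0.18. A pair of GAAA with any 2 bases between them, the core of the element bound by interferon-activated factors, was found on either strand of the promoter of 13 of the 21 genes matched in RefSeq, against 3.99% of all 27025 genes with promoters of the same length (250 bases before to 50 after the start). *Ifi209*, *Oasl2* and *Irf7* were not among the 13. The list was made of interferon-stimulated genes, so this share describes the list and not the difference between HFD and HFDmetf. A match is a description and not a site. The promoters of *Ifit1* (GRCm38.p6, chr19:34640639-34640938, plus strand) and *Oas3* (chr5:120777610-120777909, minus strand) are shown as examples with 2 matches and 1 match, respectively, in capitals, on the gene's own strand, so that a match on the other strand starts with TTTC.
Ifit1: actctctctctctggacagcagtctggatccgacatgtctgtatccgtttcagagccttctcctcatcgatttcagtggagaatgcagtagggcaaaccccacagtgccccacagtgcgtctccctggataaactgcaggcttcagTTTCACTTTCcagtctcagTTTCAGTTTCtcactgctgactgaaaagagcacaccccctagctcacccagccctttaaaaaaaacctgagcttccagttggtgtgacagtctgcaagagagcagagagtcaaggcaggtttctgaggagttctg
Oas3: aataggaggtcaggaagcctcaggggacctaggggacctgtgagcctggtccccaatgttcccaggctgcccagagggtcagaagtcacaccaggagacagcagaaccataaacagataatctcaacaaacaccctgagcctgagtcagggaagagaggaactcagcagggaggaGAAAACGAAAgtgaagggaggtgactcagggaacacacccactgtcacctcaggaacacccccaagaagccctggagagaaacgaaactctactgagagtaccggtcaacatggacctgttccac

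Plasma cells, the end stage of the B lineage and the source of gut IgA, did not follow the B-cell genes. Of 11 tested plasma cell genes 6 were higher and 5 lower, with 0 at p under 0.05 and a median logFC of 0.03. *Igha*, the IgA heavy chain, had a logFC of 0.03, and *Jchain*, which joins IgA dimers, −0.29. Their summed level was 2168 to 3388 CPM in HFD and 1708 to 3657 CPM in HFDmetf, and HFD F1, the library richest in B-cell transcripts, was the lowest of the HFD libraries. Of 10 immunoglobulin constant regions 9 were lower, with *Ighd* alone at p under 0.05 and a median of −0.75. Heavy-chain V segments were split into 26 higher and 22 lower, and light-chain V segments into 17 higher and 30 lower. With 3 of 48 and 5 of 47 at p under 0.05, in both directions, their shares were 6.25% and 10.6%.

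In the epithelium, genes of the mature absorptive cell were lower and genes of the crypt higher in HFDmetf. All 20 tested brush-border enzyme genes were lower, with a median logFC of −0.65, of which *Ggt1*, a gamma-glutamyl peptidase gene (logFC = −0.81, SE = 0.373), and *Mep1b*, a meprin gene (−0.68, SE = 0.327), were at p under 0.05. *Anpep*, aminopeptidase N, had a logFC of −0.75 (SE = 0.371) and *Sis*, sucrase-isomaltase, −0.44. The summed level was 26017 to 46569 CPM in HFD. In HFDmetf it was 11338 CPM in M1, 21753 CPM in M2 and 9215 CPM in F2, and 37832 to 43407 CPM in the other 3, which lie inside the HFD range. HFDmetf M1 and F2 were the 2 lowest of the HFDmetf libraries in 17 of the 20 genes. Without them 14 of 20 genes were lower, 0 at p under 0.05, and the median was −0.21.

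Lipid handling followed the same libraries. All 9 tested apolipoprotein and chylomicron assembly genes were lower, with a median of −0.72 and *Apob*, the scaffold of the chylomicron, at p under 0.05 (logFC = −0.87, SE = 0.419). *Apoa1* had a logFC of −0.90, and *Apoa4*, which enterocytes secrete upon fat absorption, −1.62 with an SE of 0.965. *Apoa4* spanned 88.6 to 6723 CPM in HFD and 97.3 to 1752 CPM in HFDmetf, so its spread within a group exceeded the difference, and its logFC was 0.17 without HFD M3, HFD F2 and HFDmetf M3. Without HFDmetf M1 and F2 all 9 were lower with a median of −0.27. Of 19 genes of fatty acid uptake and triglyceride assembly 16 were lower (median −0.43), with the lipid droplet gene *Plin3* at p under 0.05 (logFC = −0.58). Sugar transport, fructose use and gluconeogenesis had 12 of 14 lower, 0 at p under 0.05 (median −0.45). Of 17 genes listed under amino acid and peptide transport 11 were lower (median −0.32). The 2 at p under 0.05 were higher, the glutamine transporter gene *Slc1a5* (logFC = 0.44) and the nucleobase transporter gene *Slc43a3* (0.66). Genes typical of the proximal small intestine had a median of −0.77 with 9 of 12 lower, which became −0.04 without HFD M3, the library that lacked the ileal bile acid genes.

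Structural genes of the epithelium were lower by less than the enzymes. Of 24 genes 20 were lower, with a median of −0.30, and 3 at p under 0.05, namely *Espn*, which bundles actin in microvilli (logFC = −0.78), the keratin gene of differentiated cells *Krt20* (−0.71) and the intestinal surface antigen gene *Gpa33* (−0.53). Without HFDmetf M1 and F2 the median was −0.08, with 20 lower and 0 at p under 0.05. Of 20 tight junction and claudin genes 16 were lower, 0 at p under 0.05 (median −0.13).

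Inducible defence genes of the epithelium were mostly lower in HFDmetf. Of 15 tested genes 13 were lower, 5 at p under 0.05, with a median logFC of −0.77. *Duox2* and *Duoxa2*, which together make hydrogen peroxide at the cell surface, had logFCs of −1.07 (SE = 0.481) and −1.64 (SE = 0.628). *Duox2* had 99.9, 308 and 1075 CPM in HFD and 78.6, 207 and 305 CPM in HFDmetf, where the groups overlapped and the HFDmetf values stayed below the HFD median. *Reg3g*, an antibacterial lectin, was lower by a logFC of −1.04 (SE = 0.465), *Socs3*, a feedback inhibitor of cytokine signals, by −1.0 (SE = 0.378) and *Sprr2a3* by −1.31 (SE = 0.582), and *Reg3b* had −1.37 (SE = 0.675) and did not pass. The summed level of the list was 806 to 4917 CPM in HFD and 642 to 1807 CPM in HFDmetf. The median was −0.48 with 4 genes at p under 0.05 without HFD M2 alone. It was −0.60 without HFD M2 and HFD F1 and −0.78 without HFDmetf M1 and F2, each with 5 genes at p under 0.05, and −0.59 with 2 genes without HFD M3.

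In most secretory and sensory cell types of the epithelium the share of genes at p under 0.05 was near the 6.87% of all genes. It was 5.56% in the Paneth and the enteroendocrine list, 5.88% in the goblet, 8.33% in the tuft and 22.2% in the M cell list. Of 18 Paneth cell genes 12 were lower (median −0.15), with *Mptx2* alone at p under 0.05. Of 17 goblet cell genes 9 were lower (median −0.02), with the mucin gene *Muc13* alone at p under 0.05 (logFC = −0.66). Of 12 tuft cell genes 9 were lower (median −0.30), with *Rgs13* at p under 0.05 (logFC = −1.08). HFD M3 had a summed tuft cell level of 499 CPM, where the remaining 5 HFD libraries had 114 to 159 CPM, and without it the median was 0.06. Of 18 enteroendocrine genes 14 were higher (median 0.16), with the granin gene *Scg2* at p under 0.05 (logFC = 0.64). Of 9 genes of M cells and follicle-associated epithelium, the cells that cover follicles, 5 were lower, with *Spib* (logFC = −1.25) and *Clu* (−1.28) at p under 0.05. Both of these genes are also used in B cells or follicles, and *Clu* had 13.7, 62.8 and 189 CPM in HFD against 22.7, 29.9 and 42.3 CPM in HFDmetf.

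Genes of the crypt lay on the other side. Of 18 crypt stem cell genes 17 were higher in HFDmetf, 4 at p under 0.05, with a median logFC of 0.27. *Znrf3*, which removes Wnt receptors from stem cells, had 14.7, 21.6 and 25.3 CPM in HFD and 21.6, 27.1 and 30.2 CPM in HFDmetf (logFC = 0.35, SE = 0.132), with 4 of 6 HFDmetf libraries above every HFD library. *Smoc2* (logFC = 0.34), *Lrig1*, an ErbB inhibitor of stem cells (0.32), and *Rgmb* (0.30) were the other 3. All 28 cell cycle genes were higher, with a median of 0.33, but 2 were at p under 0.05, among them the replication helicase gene *Mcm7* (logFC = 0.43). Without HFDmetf M1 and F2 the medians were 0.17 and 0.20, with 14 of 18 and 27 of 28 higher and 0 at p under 0.05. The number of cell cycle genes at p under 0.05 ranged from 0 to 14 when single libraries were left out.

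Metformin acts on complex I as an assembled protein, and the transcripts of the respiratory chain were lower by small amounts. Of 36 nuclear genes of complex I 34 were lower in HFDmetf, with a median logFC of −0.22, and 4 were at p under 0.05, namely *Ndufa1* (logFC = −0.71, SE = 0.232), *Ndufa2* (−0.55), *Ndufc2* (−0.48) and *Ndufb9* (−0.47). Of 43 nuclear genes of complexes II to V 41 were lower, with a median of −0.28 and 6 at p under 0.05, among them the cytochrome c oxidase genes *Cox6c* (logFC = −0.65, SE = 0.223) and *Cox7b* (−0.61, SE = 0.237). *Cox6c* had 73.7, 119 and 223 CPM in HFD and 71.5, 89.9 and 120 CPM in HFDmetf, and the groups overlapped. The 8 mitochondrially encoded genes that were tested were lower, 0 at p under 0.05, with a median of −0.48 that became 0.04 without HFD M3.

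Mitochondrially encoded transcripts were spread unevenly over the libraries. The summed level of those transcripts was 90344 CPM in HFD M3, 60343 CPM in HFD F2 and 61733.5 CPM in HFDmetf M3, and at most 33912 CPM in the other 9 libraries. The nuclear genes of complexes II to V also had their highest summed levels in HFD F2 (8924 CPM) and HFD M3 (7522 CPM), but not in HFDmetf M3 (5737 CPM, beside an HFDmetf median of 5949 CPM). With these 3 left out, 16 of 36 complex I genes and 25 of 43 genes of complexes II to V were lower, 0 at p under 0.05, with medians of 0.03 and −0.03. Glycolysis had 14 of 19 genes lower (median −0.18), with *Slc16a3*, a lactate exporter (logFC = −1.18), *Tpi1* (−0.46) and *Gapdh* (−0.44) at p under 0.05. With the same 3 libraries left out its median was −0.03 with 0 at p under 0.05.

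For other genes tied to the action of the drug, counts at p under 0.05 are to be read beside the 6.87% of all genes. The share was 9.09% of the AMPK list, 4.92% of the drug-metabolizing enzymes and 14.3% of iron and heme handling. Lists of this size can also hold 0 such genes at the share of all genes. Of 7 tested metformin transporter genes 0 were at p under 0.05 (median −0.18, range −0.32 to 0.23). Of 11 AMPK subunit and upstream kinase genes *Prkab2*, a regulatory subunit, was at p under 0.05, with 6.65, 9.90 and 10.6 CPM in HFD and 8.80, 11.5 and 14.5 CPM in HFDmetf (logFC = 0.33, SE = 0.147). The median of the 11 was 0.01. The integrated stress response (22 genes, median −0.02), fatty acid oxidation (26, −0.02), cholesterol synthesis and sterol handling (29, −0.04) and bile acid transport (9, −0.19) had 0 genes at p under 0.05 each. Of 61 drug-metabolizing enzyme genes 3 were at p under 0.05, *Ces1d* (logFC = 0.92), *Gsta3* (0.82) and *Cyp3a25* (−0.97). In iron and heme handling, the folate and heme transporter gene *Slc46a1* (logFC = −1.15) and *Flvcr2* (−0.80) were lower at p under 0.05, each with 1 HFD library far above the others. Of 37 proteasome genes 33 were lower by a median of −0.11, and *Psmb8*, a subunit of the immunoproteasome, had the smallest p (logFC = −0.81, SE = 0.259).

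Genes of the wall beneath the epithelium were higher almost without exception. All 15 tested genes of enteric neurons and glia were higher in HFDmetf (median logFC 0.70), with *Dbh* (1.21, SE = 0.522) and *Syn2*, a synaptic vesicle gene (0.97, SE = 0.327), at p under 0.05. *Syn2* had 1.77, 2.86 and 4.20 CPM in HFD and 3.63, 5.83 and 8.92 CPM in HFDmetf, with 4 of 6 above every HFD library. Of 25 collagen and matrix genes 24 were higher (median 0.52), with *Pamr1*, *Col6a1*, a chain of collagen VI (logFC = 0.55), and *Frem1* (0.77) at p under 0.05. Of 16 endothelial and lymphatic genes 15 were higher (median 0.41), with *Eng* (logFC = 0.72) and *Tie1* (0.62), receptors of vessel growth, at p under 0.05. All 16 smooth muscle genes were higher by a median of 0.35 with 0 at p under 0.05.

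Adipocyte genes had the largest median of the stromal lists, 1.40, with 10 of 12 higher and the lipid droplet gene *Plin4* alone at p under 0.05 (logFC = 1.51, SE = 0.690). Their summed level was 150 to 590 CPM in HFD. In HFDmetf it was 1268 CPM in M1, 1151 CPM in F2 and 729 CPM in M2, and 152 to 316 CPM in the other 3. The 3 libraries richest in adipocyte transcripts were also the 3 poorest in brush-border transcripts. HFDmetf M1, M2 and F2 were the 3 highest of the HFDmetf libraries in 9 of 12 adipocyte, 20 of 25 matrix and 9 of 15 neuronal genes. Without M1 and F2 the medians were −0.14 for adipocytes, 0.24 for matrix, 0.12 for muscle, 0.05 for endothelium and 0.54 for neurons, and 68 of 82 stromal genes were higher with a median of 0.20 and 2 at p under 0.05. Whether the pieces of tissue held more of the outer wall in these animals was not tested.

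Blood genes and most macrophage genes were higher too. All 4 tested blood genes were higher, 3 at p under 0.05, namely the globin genes *Hba-a2* (logFC = 1.70, SE = 0.595), *Hba-a1* (1.59, SE = 0.564) and *Hbb-bs* (1.34, SE = 0.426). *Hbb-bs* had 4.24, 10.8 and 34.2 CPM in HFD and 18.4, 31.5 and 62.6 CPM in HFDmetf, and of the HFD libraries HFD M1 alone reached the HFDmetf range. The 2 alpha-globin genes are near-identical copies, so their separate counts are uncertain. Of 14 macrophage genes 11 were higher (median 0.26), with the 3 complement genes *C1qa* (logFC = 0.33), *C1qb* (0.50) and *C1qc* (0.47) higher at p under 0.05 and 1 other member lower at that p. *C1qb* had 19.1, 27.8 and 30.3 CPM in HFD and 24.996, 37.6 and 50.3 CPM in HFDmetf, with 5 of 6 above every HFD library. *Itgax*, the integrin CD11c of dendritic cells and macrophages (logFC = 0.57), was also higher at p under 0.05. Of 27 lysosome genes 16 were lower and 11 higher (median −0.04), with *Slc11a1*, a metal transporter of phagosomes (logFC = 0.65), higher and *Napsa* (−1.43), an aspartic protease gene, and *Lamp1* (−0.36), a lysosomal membrane protein gene, lower at p under 0.05. Without HFDmetf M1 and F2 the macrophage median was 0.18 with 0 genes at p under 0.05.

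The diet by metformin difference asks whether the drug effect under the high-fat diet (HFDmetf vs. HFD) differed from that under the control diet (CDmetf vs. CD), which share no samples. No gene reached an FDR under 0.05 (smallest FDR 0.627 by edgeR), and 778 genes (5.76%) had p under 0.05, 407 (3.01%) in the direction of a lower effect under HFD. limma-voom and DESeq2 were not run for this test, and it was not refitted with any library left out, CD M3 included. B-cell genes had opposite signs on the diets. The median logFC of the 22 genes was −2.07 under HFD and 2.02 under CD, and 21 of 22 had p under 0.05 for the difference. Without HFD M2 and HFD F1 the median under HFD was −0.49. Members of such a list vary together between libraries, so these counts are not of separate results. *Ly6d* had −1.56 and 1.41 (FDR = 0.627), *Cxcr4* −1.02 and 1.11 (FDR = 0.713), *Btk* −1.33 and 0.72 (FDR = 0.755) and *Tnfrsf13b* −0.81 and 0.75 (FDR = 0.755). Summed over the 22 genes, the level was 41.5 to 182 CPM in CD and 68.7 to 825 CPM in CDmetf, so that here, too, the group with the higher median held the widest range. General leukocyte genes had medians of −0.65 and 0.81 with 16 of 20 at p under 0.05, receptor signalling −0.35 and 0.58 with 15 of 21, and MHC class II −0.46 and 0.37 with 7 of 12.

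In the same test 23 of 560 epithelial genes were at p under 0.05, and 102 of 288 lymphoid genes. The brush-border median was −0.65 under HFD and −0.18 under CD with 0 of 20 at p under 0.05, and that of the apolipoproteins −0.72 and −0.05 with 0 of 9. Adipocyte genes had 1.40 and −1.25 with 4 of 12. The crypt stem cell medians were 0.27 and −0.06 with 4 of 18, and *Znrf3* (0.35 and −0.22, FDR = 0.755) was among the 4. For the interferon genes the medians were −0.33 and 0.28 with 6 of 24.

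**Figure D4:**
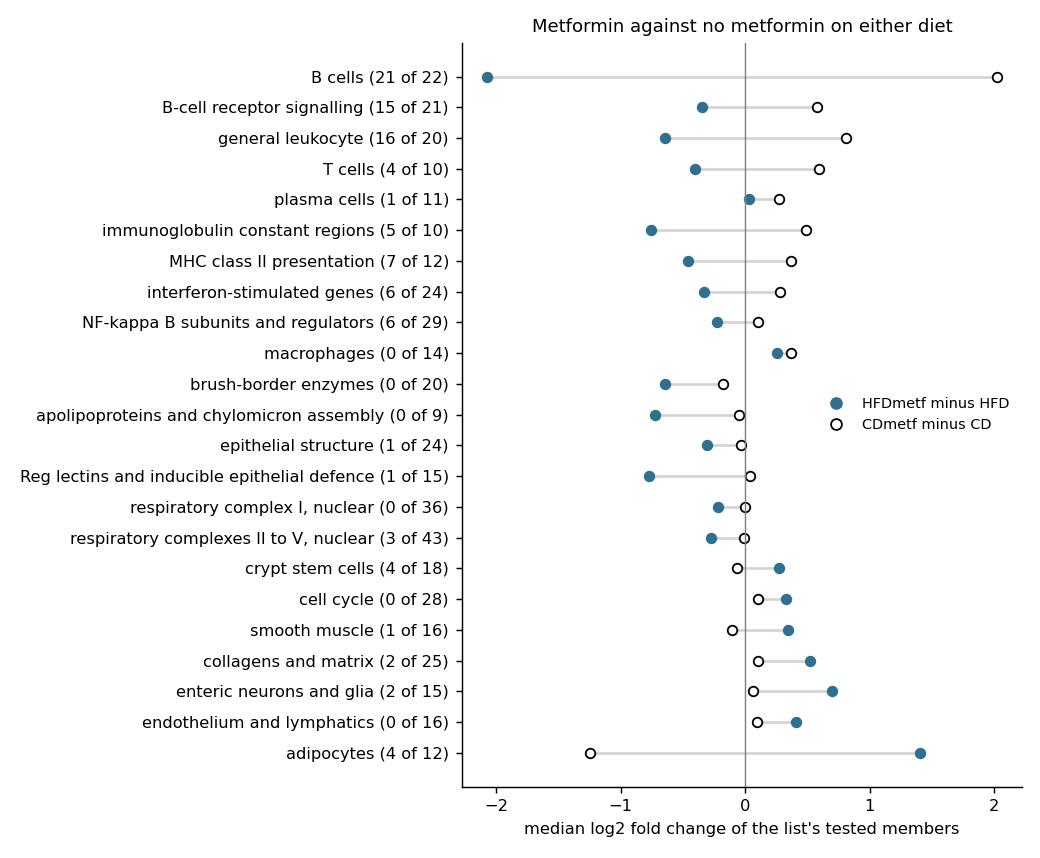
Median logFC (log2) of each of 23 lists under the high-fat diet (HFDmetf minus HFD, filled points) and under the control diet (CDmetf minus CD, open points), with the number of genes at p under 0.05 for the difference in brackets. The B-cell list spans −2.07 to 2.02 and the adipocyte list 1.40 to −1.25.

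The effect of metformin in labelled males and labelled females was compared in a model with the sexes of each group apart (14402 genes). No gene reached an FDR under 0.05, and 480 (3.33%) had p under 0.05. This comparison was made in edgeR alone. The genes of the circadian clock stood out after their values were seen, with 12 of 18 at p under 0.05, and they are given for that reason as a description. The clock is a loop in which the activators ARNTL and CLOCK or NPAS2 drive the *Per* and *Cry* repressors and the D-box factors DBP, TEF and HLF, and it runs in most cells of the gut. Its transcripts change together with the time of day, so the 18 genes are not separate observations. The hour at which each tissue was taken is not given, and its part in these values was not tested. The median logFC of the 18 genes was −0.41 in labelled males and 0.75 in labelled females, and in both sexes together 0.16 with *Bhlhe41* alone at p under 0.05.

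*Arntl* was high where its targets were low. In labelled females it had 30.6, 31.6 and 49.8 CPM in HFD and 8.56, 8.85 and 11.0 CPM in HFDmetf, and in labelled males 5.47, 12.7 and 25.8 CPM in HFD and 21.8, 35.4 and 52.9 CPM in HFDmetf. The female groups did not overlap, the male groups did, and the directions were opposite (logFC −2.03 and 1.53, male minus female 3.56, SE = 0.885, FDR = 0.9998 by edgeR). *Per3* ran the other way, with 6.00, 9.31 and 24.99 CPM in HFD females against 41.02, 77.5 and 85.2 CPM in HFDmetf females, and 19.2, 46.0 and 71.5 CPM in HFD males against 10.6, 24.5 and 26.6 CPM in HFDmetf males (difference −3.49, SE = 0.928). *Dbp* had 4.54, 14.2 and 26.5 CPM against 35.8, 40.7 and 55.8 CPM in the female groups (difference −3.09, SE = 1.17), and *Hlf* had 4.43, 6.30 and 9.94 CPM against 24.4, 30.2 and 35.9 CPM (difference −2.67, SE = 0.667). *Ciart* (−2.88), *Tef*, *Per1*, *Per2*, *Nr1d2*, *Cry2* and *Bhlhe41* shared that direction, and *Npas2* (2.00) shared that of *Arntl*. *Clock*, *Cry1*, *Nr1d1*, *Nfil3* and *Bhlhe40* were not at p under 0.05. The labelled female groups did not overlap in 11 of the 18 genes (61.1% beside 4.14% of all genes) and the labelled male groups in 0 (7.15% of all genes). Without HFD M2 and HFD F2, whose sex labels did not match, 13 of 18 genes had p under 0.05.

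**Figure D5:**
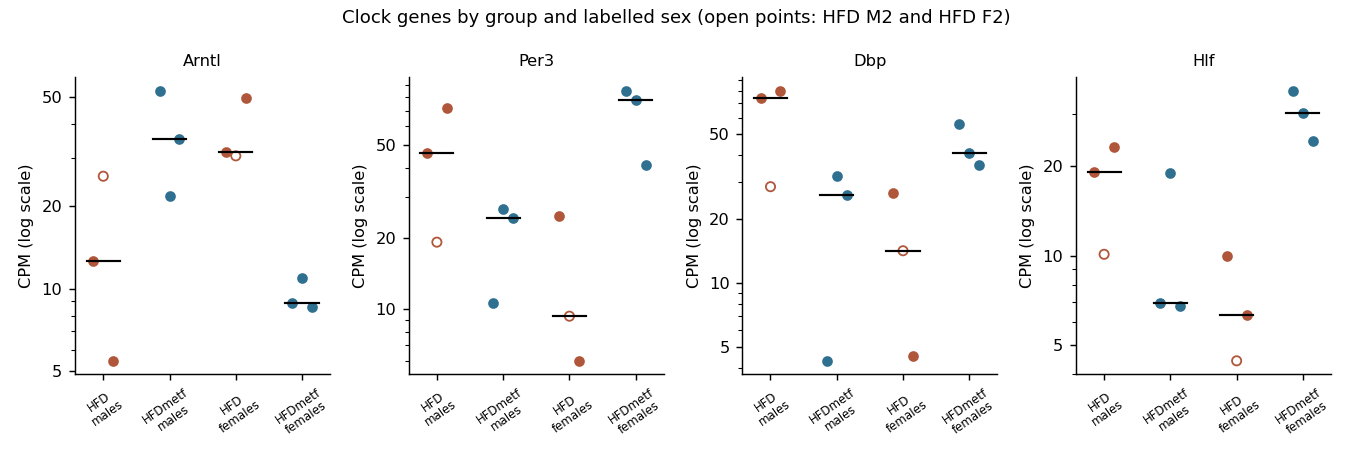
CPM of 4 clock genes per library on log axes, by group and labelled sex, with 3 libraries in each, a black line at the median and open points for HFD M2 and HFD F2. In the females *Arntl* is lower and *Per3*, *Dbp* and *Hlf* are higher in HFDmetf without overlap, and in the males the groups overlap.

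The promoters of *Arntl*, *Per3* and *Ciart* are shown because clock factors act through short elements that these genes carry, in windows of 250 bases before to 50 after the RefSeq start (GRCm38.p6). The element of the REV-ERB receptors (TAGGTCA, either strand) was in the promoters of 2 of 15 matched clock genes, *Arntl* and *Nfil3*, and of 2.97% of all genes. The D-box (TTATGTAA, either strand) was in those of 1, *Per3*, and of 1.11% of all genes. The E-box (CACGTG, its own reverse complement) was in those of 5, *Bhlhe41*, *Ciart*, *Cry1*, *Per1* and *Tef*, and of 8.09% of all genes. The matches are in capitals, and none of these sequences was tested for a role here. *Arntl* is on the plus strand at chr7:113207261-113207560, *Per3* on the minus strand at chr4:151044616-151044915 and *Ciart* on the minus strand at chr3:95882179-95882478.
Arntl: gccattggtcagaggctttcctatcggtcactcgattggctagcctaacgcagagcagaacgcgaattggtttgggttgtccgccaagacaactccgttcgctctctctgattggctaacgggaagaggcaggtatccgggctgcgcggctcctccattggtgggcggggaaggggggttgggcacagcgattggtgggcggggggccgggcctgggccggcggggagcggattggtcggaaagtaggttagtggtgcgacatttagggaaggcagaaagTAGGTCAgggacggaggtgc
Per3: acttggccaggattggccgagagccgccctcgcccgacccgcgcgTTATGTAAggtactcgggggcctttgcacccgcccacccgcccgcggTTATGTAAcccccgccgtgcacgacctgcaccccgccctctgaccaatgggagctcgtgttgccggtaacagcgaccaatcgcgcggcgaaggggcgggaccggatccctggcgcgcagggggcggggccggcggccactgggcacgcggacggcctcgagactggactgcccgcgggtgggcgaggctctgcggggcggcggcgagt
Ciart: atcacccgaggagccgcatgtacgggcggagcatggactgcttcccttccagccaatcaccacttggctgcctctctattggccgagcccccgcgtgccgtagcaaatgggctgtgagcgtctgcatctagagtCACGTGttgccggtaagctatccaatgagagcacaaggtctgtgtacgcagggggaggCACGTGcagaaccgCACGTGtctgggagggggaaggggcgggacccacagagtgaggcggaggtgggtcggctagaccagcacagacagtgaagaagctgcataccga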

How the data were processed

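The authors trimmed the reads with Trimmomatic 0.39, used STAR 2.5.3a for mapping to GRCm38 and for counting, and deposited raw counts per gene. Which annotation release and which strand were counted is not given in the sources used here, and genes that overlap or lie antisense to each other are uncertain for that reason. The 4 summary lines were left out, and there were 0 columns of no sample. All 55536 gene IDs were named from GENCODE M21. Groups, sex and replicate numbers came from the labels.

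Genes were filtered with filterByExpr on the group (minimum count 10), normalized with TMM and fitted in R 4.3.3 with edgeR 4.0.16 by the quasi-likelihood test on all 24 libraries, with group, labelled sex and replicate number as terms. Benjamini-Hochberg FDRs cover all 13505 tested genes. logFC is HFDmetf minus HFD in log2 units, and SE is its standard error. limma 3.58.1, DESeq2 1.42.0, other filters, scalings, covariates and leaving out libraries were alternatives, and the fits without HFD M2 and F1, without HFDmetf M1 and F2 and without the 3 libraries of highest mitochondrial share were chosen after seeing the data. The libraries are separate animals. Libraries of the same replicate number correlated weakly across the 2 groups (mean r 0.078, 12 pairs, −0.373 to 0.434), and those of different numbers at −0.037 (24 pairs). On simulated counts with 200 changed genes among the 13505, 65.5% of changes of log2 1 and 92% of log2 2 were recovered, with 5.76% and 5.64% false calls. The simulated counts were drawn separately for each gene, without the shifts that many genes share between these libraries. The shares recovered therefore do not apply to the comparison itself.

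The members and the 62 lists were chosen with earlier results of these data known. Named genes are the 4 markers, the 10 higher and 10 lower genes of smallest p with a proper symbol, up to 3 members of each list by p and 2 by level, and genes of lists whose groups do not overlap; the clock genes, further members at p under 0.05 and genes without overlap outside the lists were named after their values were seen. No gene set test was run. Lists are described by counts and medians. Promoters are from RefSeq. Some members of the lists are counted but not reported by name here.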

Additional observations from a re-analysis of the deposited data

Results flagged for a closer look

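In groups of 6 libraries, a library whose gap to its nearest neighbour exceeded 0.625 of the group's range was singled out (Dixon's test at 95%), which chance does in about 1 of 20 groups; 18 of 264 gene and list values in a group were. In HFD F1, *Flvcr2* was at 39.12 CPM (others 5.89 to 14.6), *H2-DMb2* at 27.32 CPM (0.886 to 10.44) and *Ly6d* at 15.14 CPM (2.86 to 6.85). In HFD M1, *Acvrl1* was at 22.13 CPM (11.1 to 14.7), *Hbb-bs* at 34.23 CPM (4.24 to 13.5) and *Igkv5-48* at 234.6 CPM (8.41 to 43.9).

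In HFD M3, *Rgs13* was at 63.09 CPM (6.02 to 13.7), *Slc46a1* at 103.5 CPM (6.98 to 26.9), *Sprr2a3* at 168.7 CPM (14.6 to 56.7) and the summed tuft cell list at 498.9 CPM (114 to 159). In HFD M2, *Socs3* was at 99.5 CPM (13.1 to 38.997), and in HFD F3, *Irf7* at 30.59 CPM lay below the others (66.0 to 83.5).

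In HFDmetf F2, *Fcmr* (3.299 CPM, others 0 to 0.35), *Tnfrsf13c* (3.299 CPM, 0.342 to 0.907) and the tuft cell list (222.1 CPM, 134 to 143) lay above the others, with a floor of 1.65 CPM in that shallow library. In HFDmetf M1, *Reg3b* was at 814.9 CPM (122.5 to 340), in HFDmetf M3, *Ms4a1* at 4.08 CPM (0.769 to 1.65), and in HFDmetf F3, *Sned1* at 7.396 CPM lay below the others (16.02 to 20.9).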

How the results depend on the processing

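No gene passed an FDR of 0.05 under any setting. Numbers of genes higher and lower at p under 0.05 (417 and 511) were 266 and 811 by limma-voom, 1369 and 1757 with sample quality weights, 501 and 577 by DESeq2, 431 and 467 with RLE scaling, 1772 and 55 scaled on epithelial and 579 and 43 on leukocyte genes, 745 and 1028 with at least 1 count (36824 genes), 370 and 283 with at least 10 counts in each library, 230 and 252 with the 12 libraries alone, 477 and 774 without CD M3, 128 and 196 without HFD M2 and HFD F2, 177 and 190 with a muscle score as covariate, and, chosen after seeing the data, 231 and 466 without HFD M2 and F1 and 82 and 108 without HFDmetf M1 and F2. Leaving out single libraries gave 177 (without HFDmetf M1) to 1120 higher (without HFD F3 or HFDmetf M3) and 202 (without HFDmetf M1) to 1127 lower (without HFD F3); without HFD F2 there were 217 and 273, without HFDmetf M3 914 lower, without HFDmetf F2 197 and 214, without HFD M3 275 lower and without HFDmetf F3 883 lower. The replicate block rests on numbers that correlated weakly; with no replicate block the counts were 407 and 324, with 639 for the difference between diets and 342 for that between the sexes.

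Signs reversed for *Ebf1* (0.16 epithelial scaling, 0.40 leukocyte scaling, 0.75 B-cell score as covariate, −0.47 to 0.18 with single libraries left out, the latter without HFD F1, 0.45 without HFD M2 and F1), *Blnk* (0.11 and 0.13 under the scalings), *Malt1* (0.0494 and 0.0910), *Trac* (0.20 with the score, 0.01345 without HFD M2 and F1) and, with the score, *Cxcr5* 0.65, *Tnfrsf13c* 0.49, *Pax5* 0.21, *Ms4a1* 0.21, *H2-Eb2* 0.14, *Cd79a* 0.12 and *Ighd* 0.0845; *Apoa4* was at 0.17 without the 3 libraries of highest mitochondrial share. The score is built from B-cell genes, and the cause was not tested otherwise. Depth limits genes near the floors of up to 1.65 CPM.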
